A study of Mus musculus with 50 samples.

Results

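The genes described here are the translation initiation and elongation factors other than the cap-binding complex. They are the genes whose symbol begins with Eif1 to Eif6, Eef1 or Eef2, with some left out. Left out are Eif4e, Eif4e2, Eif4e3, Eif4g1, Eif4g2, Eif4g3, Eif4a1, Eif4a2, the eIF4E-binding proteins and the eIF2 kinases. Eif4a3 and Eif4e1b are kept. Of 19057 genes on the array, 49 met this rule, and each was read from the probe with the highest mean intensity. They comprise 11 factors of start site scanning, of the eIF2 complex and of initiator tRNA delivery, 5 subunits of eIF2B, 12 of eIF3 and 5 partners of the eIF4 complex. A further 4 act in subunit joining or belong to eIF5A, 8 in elongation, and 4 are methyltransferases of eEF1A or eEF2. Of the 49, 42 were detected on at least 3 of 50 arrays and were tested among 12605 genes, and 35 were detected on every array. Eef1a2, Eef1akmt2, Eif1ax, Eif2s3x-ps1, Eif3e, Eif4e1b and Eif5a2 were not tested. Of these, Eif2s3x-ps1, counted among the 11 above, is a pseudogene.

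RNA on polysomes (the fraction titled heavy) and total RNA were measured on Illumina bead arrays in derivatives of NIH 3T3, a mouse fibroblast line. In the inducible derivative mifepristone, a steroid receptor ligand, turns on an eIF4E gene, and the other derivative is labelled non-inducible. The inducible line was grown without mifepristone, with mifepristone alone, or with mifepristone plus a compound, either 10, 50, 100 or 200 µM of 4Ei-1, which inhibits eIF4E, or 200 µM of 4Ei-4, an analog described as weaker. Cells of the other derivative were grown with or without mifepristone, and all treatments lasted 4 h. Every group had 3 cultures except the non-inducible line without mifepristone, which had 1. All cells were treated with cycloheximide before polysomes were separated on sucrose gradients. The labels do not say whether replicates were grown separately, so p-values measure only the spread between these samples, which may be technical.

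Initiation begins when eIF1, eIF1A, eIF3, eIF5 and the complex of eIF2, GTP and initiator tRNA join the small ribosomal subunit, and eIF2B recharges eIF2 with GTP after each round. The cap-binding complex, with eIF4E at its tip and the helicase stimulators eIF4B and eIF4H at its side, brings this assembly to the mRNA, eIF5B joins the large subunit, and eEF1 and eEF2 drive elongation. Many mRNAs of elongation factors and of some initiation factors carry a 5′ terminal oligopyrimidine tract (5′ TOP), through which growth signals control their own translation.

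Across the 50 arrays 23.9% to 39.9% of probes were detected and mean intensity ranged from 183 to 436. All 8 fibroblast markers were measured and 7 were detected on every array, while 9 of 10 markers of other cell types were measured, each detected on fewer than 25 of the 50 arrays. The labels name 4 processing batches, of which batch 4 consisted of the 4Ei-4 and the non-inducible cultures alone. The polysome arrays of 4 cultures correlated least with the other arrays: replicate 1 with 200 µM 4Ei-1 (median correlation 0.876), replicate 3 with 50 µM, replicate 1 with 100 µM and replicate 1 without mifepristone. Efficiency, used below, is log2 polysome RNA minus log2 total RNA of a culture. Because all arrays were scaled to one distribution, efficiency is relative to the other mRNAs and 0 is not a fixed degree of ribosome loading. As bulk RNA of a culture was measured, a shift in its cells and a change within each cell cannot be told apart. Eif4e itself was detected on 17 of 50 arrays and its log2 change in total RNA on induction was 0.40 ± 0.20 (limma, adjusted p = 0.665). Its change was -0.52 ± 0.27 on polysomes (limma, adjusted p = 0.634) and -0.92 ± 0.34 in efficiency (adjusted p = 0.99). The sources used here do not say whether its probe reads the introduced gene.

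Sequences around the annotated start site are shown for some factors at both ends of the efficiency range and for textbook 5′ TOP mRNAs. A 5′ TOP tract lies in the first bases of an mRNA. Eif2b5, at an efficiency of 0.60, lies between those ends and is shown as well. Each is 30 bases of the GRCm38.p6 build from RefSeq, 15 on each side of the start, 5′ to 3′ on the strand of the gene. Capitals mark an unbroken run of at least 8 C or T that touches the 10 bases on either side of the start.
Eif4b, chr15:102073758-102073787, plus strand: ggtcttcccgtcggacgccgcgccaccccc
Eef1b2, chr1:63176816-63176845, plus strand: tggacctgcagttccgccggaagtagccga
Eef2, chr10:81176616-81176645, plus strand: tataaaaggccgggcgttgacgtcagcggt
Eef1a1, chr9:78481710-78481739, minus strand: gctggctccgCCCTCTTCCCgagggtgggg
Eif3f, chr7:108934400-108934429, plus strand: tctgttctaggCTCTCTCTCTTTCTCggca
Eif2s3x, chrX:94212637-94212666, minus strand: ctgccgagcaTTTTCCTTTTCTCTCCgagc
Eif2b5, chr16:20498802-20498831, plus strand: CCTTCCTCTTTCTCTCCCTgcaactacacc
Eif3d, chr15:77970810-77970839, minus strand: gtggtagggccatttacgacagcgctggtc
Eif4h, chr5:134639395-134639424, minus strand: gtgcgacttgcgatcaggcagcgcggcgga
Eef1a1, Eif3f, Eif2s3x and Eif2b5 hold a run and the other 5 do not. Of 48 annotated starts of 38 members in the table, 13 have such a run, and of all 32851 starts 4497 do, or 13.7%. The 9 tested members with a run had a median efficiency of 0.22 and the 25 without one a median of 0.45. Among those with a run, Eif2s3y was detected on 3 arrays and Eif3m on 5, so their values are largely background. Eef1a1, also among them, was too bright for its efficiency to be read. No difference is therefore read from these medians. The match describes these letters only, and an annotated start may differ from the one used in these cells.

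The first comparison asks how far each factor's mRNA sat on polysomes relative to its total RNA. Averaged over the 9 groups, 29 of the 42 factors differed from 0 in efficiency, 23 higher and 6 lower, against 45.4% of all genes tested (27.1% higher and 18.3% lower). Well detected genes were called more often. Among the 4792 genes detected on all 50 arrays 79.4% were called, 48% higher and 31.4% lower, and among the 35 factors detected on all arrays 27 were called, 22 higher and 5 lower. The share of factors called was thus close to that of other well detected genes. The counts given below by role, and for other genes of translation, stand against these same shares. Median efficiency was 0.40 over the 42 factors and 0.05 over all genes, and 0.45 against 0.19 where only factors and genes detected on all arrays were counted. Without the 4 cultures that stood apart 29 factors were again called, of which 27 were shared with the first 29.

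**Figure D1:**
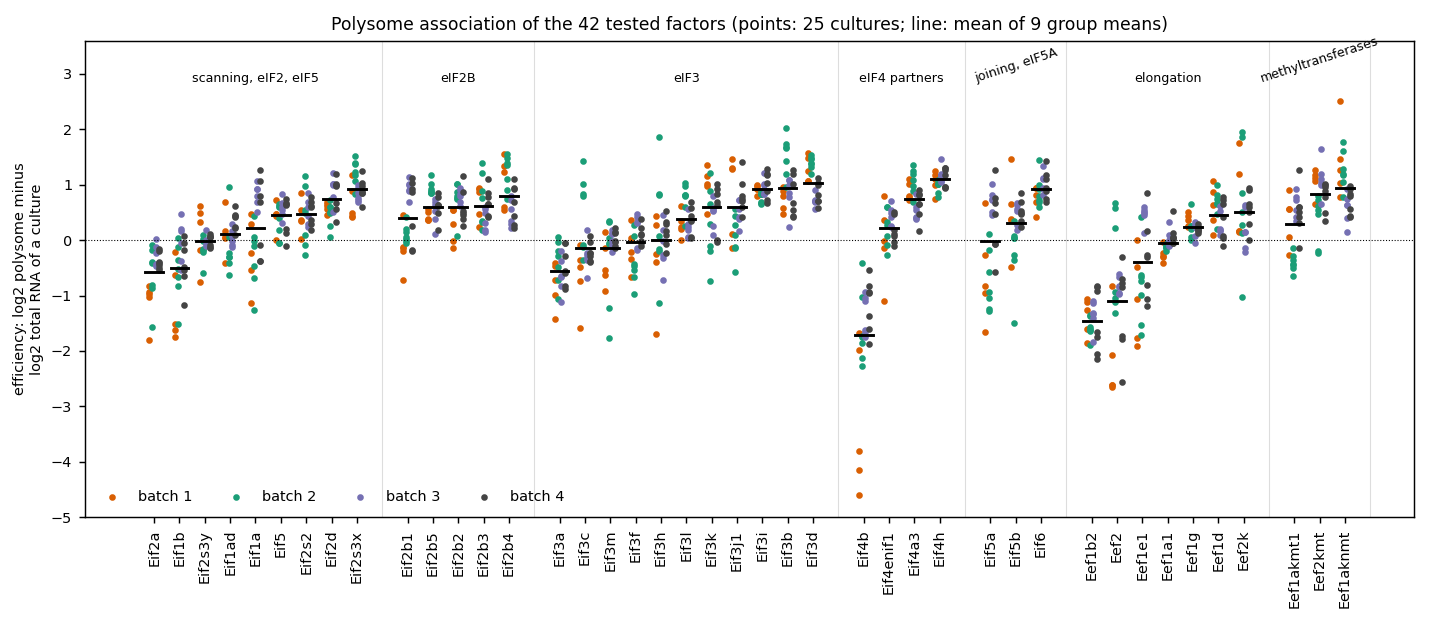
Efficiency (vertical axis, log2 polysome minus log2 total RNA) of the 42 tested factors, grouped by role. Each point is 1 of 25 cultures, coloured by processing batch, and each line is the mean over the 9 groups. Eif4b, Eef1b2 and Eef2 lie lowest and Eif4h and Eif3d highest.

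Among scanning, eIF2 and tRNA delivery factors, 6 of 9 tested were called, 4 higher and 2 lower. Eif2s3x, the gamma subunit of eIF2, which binds the initiator tRNA, had an efficiency of 0.42 in the lowest culture, 0.89 in the median and 1.52 in the highest. It was above 0 in 25 of 25 cultures, with a mean of 0.93 ± 0.09 (SE, limma, adjusted p = 2.7e-08). Eif2d, which delivers tRNA without GTP, was called at 0.74 ± 0.08, Eif2s2, the beta subunit, at 0.48 ± 0.10, and Eif5, the GTPase activator of eIF2, at 0.45 ± 0.08. The other probes of Eif5 that were detected on all arrays did not read alike: one gave 0.94 and one -0.42. Eif2a, an alternative tRNA carrier unrelated to the eIF2 subunits, ran the other way, from -1.81 to 0.02 with a median of -0.44, and was below 0 in 24 of 25 cultures (mean -0.57 ± 0.11, adjusted p = 0.000125). Eif1b, a homolog of the scanning factor eIF1, was at -0.50 ± 0.17 (adjusted p = 0.0212), and at -0.31 without the 4 cultures that stood apart, where it was not called (adjusted p = 0.0876).

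All 5 subunits of eIF2B were called, and all 5 were higher. All 5 were detected on every array, and of all genes so detected 79.4% were called and 48% were higher. Eif2b5, the catalytic epsilon subunit, ranged from 0.11 to 1.17 with a median of 0.63 (mean 0.60 ± 0.08, adjusted p = 1.79e-06), and its other probes gave 0.62 and 0.68. Eif2b4, the delta subunit, ranged from 0.22 to 1.56 (mean 0.81 ± 0.10, adjusted p = 3.43e-07). Both were above 0 in 25 of 25 cultures. Eif2b3 was at 0.62 ± 0.10, Eif2b2 at 0.60 ± 0.10 and Eif2b1, the alpha subunit, at 0.41 ± 0.10. Eif2b1 varied by batch: its means in batches 1 to 4 were -0.15, 0.11, 0.93 and 0.55, and since batches hold different groups, batch and treatment are mixed in these means.

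In eIF3, the scaffold between the small subunit and the mRNA, 7 of 11 tested subunits were called, 6 higher and 1 lower. Eif3d, a peripheral subunit that can bind caps, ranged from 0.56 to 1.57 with a median of 1.06 (mean 1.03 ± 0.07, adjusted p = 1.18e-10). Eif3b ranged from 0.23 to 2.03 with a median of 0.96 (0.94 ± 0.11, adjusted p = 2.62e-07). Eif3i, its neighbour in the complex, ranged from 0.66 to 1.28 with a median of 0.88 (0.92 ± 0.07, adjusted p = 1.62e-10). All 3 were above 0 in every culture. The other probes of Eif3i gave 0.74 and 0.65, but the dimmer second probe of Eif3b, detected on 44 arrays, gave -0.50. Eif3a, the largest subunit and the scaffold of the complex, was lower, from -1.42 to 0.06 with a median of -0.55 and below 0 in 24 of 25 cultures (-0.56 ± 0.10, adjusted p = 9.77e-05). Its second probe, detected on 21 arrays, gave -0.01. Eif3c was at -0.15 ± 0.18 and Eif3f at -0.04 ± 0.11, and neither passed.

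Of the 4 tested partners of the eIF4 complex 3 were called, 2 higher and 1 lower. Eif4h, which stimulates the helicase eIF4A, ranged from 0.74 to 1.46 with a median of 1.08, and it was the highest of the 42 at 1.10 ± 0.07 (adjusted p = 2.1e-11). Efficiencies of Eif4b, its close relative in function, ran from -4.60 to -0.41 with a median of -1.65, below 0 in 25 of 25 cultures (-1.72 ± 0.25, adjusted p = 4.62e-06). The 3 values below -3, all from batch 1, were -4.60 with 200 µM 4Ei-1, -4.15 with 100 µM and -3.80 without mifepristone, each replicate 1. On the polysome arrays of these 3 cultures, all among the 4 that stood apart, Eif4b was not well above background, so the size of these values is not settled. Without those 4 cultures its mean over groups was -1.41, against -1.68 with them, and it then lay above the -1.47 of Eef1b2. The second probe of Eif4b, detected on 26 arrays, gave 0.09 and was not called. Eif4a3, a helicase of the exon junction complex, was called at 0.74 ± 0.08, and Eif4enif1, which carries eIF4E into the nucleus and into processing bodies, was not called at 0.22 ± 0.11 (adjusted p = 0.115), whereas its second probe, detected on all arrays, was called at 0.62 (adjusted p = 0.000362).

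Of the 3 tested factors of joining and eIF5A, Eif6, which keeps the large subunit from joining early, was called, from 0.41 to 1.45 (0.92 ± 0.08, adjusted p = 3.08e-09). Its second probe, detected on 29 arrays, gave 0.01. Eif5a, the hypusine-bearing factor that eases peptide bonds between prolines, averaged -0.02 ± 0.19, but its batch means were -0.61, -0.74, 0.71 and 0.35. A further probe of it, detected on all arrays, was called at 0.41.

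In elongation, 5 of 7 tested factors were called, 3 higher and 2 lower. Eef1b2, the nucleotide exchanger of eEF1A, lay between -2.14 and -0.83 with a median of -1.40, below 0 in 25 of 25 cultures (-1.47 ± 0.09, adjusted p = 1.61e-11). Its batch means were close together, from -1.58 to -1.35, and its other probes gave -0.88 and -0.94. Eef2, the translocase, spread far more, from -2.66 to 0.67 with a median of -0.93 and below 0 in 22 of 25 cultures (-1.10 ± 0.23, adjusted p = 0.000339). Its batch means were -2.16, -0.42, -0.81 and -1.25, its other probes gave -1.19 and -0.98, and without the 4 cultures it was -0.81 (adjusted p = 0.000105). The other exchange subunits were higher, Eef1d at 0.45 ± 0.10 and Eef1g at 0.24 ± 0.07, as was the eEF2 kinase Eef2k at 0.51 ± 0.18. Eef1a1, which brings tRNA to the ribosome, was at -0.05 ± 0.07 and did not pass. Its probe ranked between 3 and 36 by intensity among 45281 on every array, at the top of the common distribution, where a difference between fractions can hardly show, so no efficiency is read from it. Eef1e1, a part of the tRNA synthetase complex, was at -0.40 ± 0.20 and did not pass (adjusted p = 0.109).

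**Figure D2:**
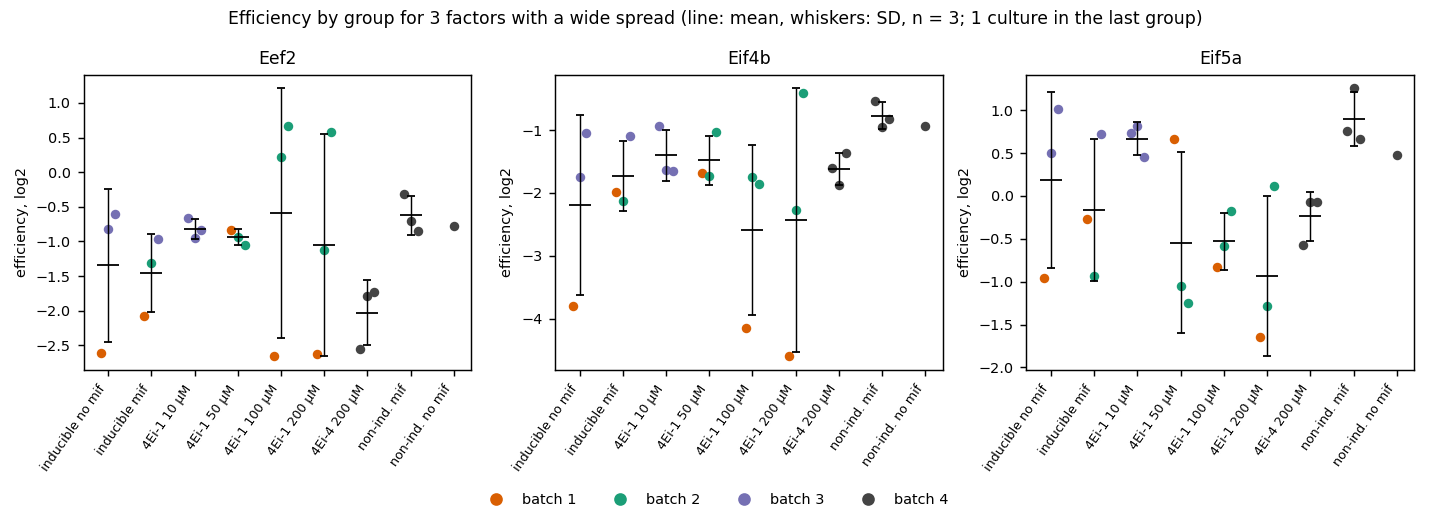
Efficiency (log2) of Eef2, Eif4b and Eif5a in each culture by group, coloured by processing batch, with the mean and SD of 3 cultures. The 3 lowest values of Eif4b and the 3 lowest of Eef2 are from batch 1, and Eif5a lies lower on average in batches 1 and 2 than in batches 3 and 4.

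Among 7 tested factors counted as 5′ TOP mRNAs from textbook knowledge, 4 were called, Eef1d and Eef1g higher and Eef1b2 and Eef2 lower, with a median of -0.04. The methyltransferase Eef1aknmt, which modifies eEF1A, was called at 0.94 ± 0.09 (adjusted p = 2.38e-08), and so was Eef2kmt, which modifies eEF2, at 0.83 ± 0.12. A second probe of Eef2kmt on all arrays was called the other way at -0.51. Over all 37 other probes of tested factors detected on at least 3 arrays, 25 had the same sign as the main probe. Of the 14 that were detected on all arrays and belonged to factors that were called, 12 were called in the same direction. A second probe of Eif3k, detected on 8 arrays, was called the other way at -0.33, against 0.60 for the main probe. Of 30 other tested genes of translation, from a list of release, recycling, mitochondrial and regulatory factors, 17 were called, 12 higher and 5 lower, with a median of 0.23. The mitochondrial elongation factors Tsfm (1.13 ± 0.08) and Tufm (0.83 ± 0.09) and the eIF2 partner Abcf1 (0.91 ± 0.10) were among the higher. Mitochondrial Mtif2 (-1.69 ± 0.12) and the poly(A)-binding Pabpc1 (-0.81 ± 0.10), itself a 5′ TOP mRNA, were among the lower.

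The second comparison asks whether the factors followed eIF4E when it was induced. No factor was called in efficiency (0% of all genes) or on polysomes (0.413%), and 1 was called in total RNA (0.627%). At an unadjusted p below 0.05 there were 2, 2 and 4 of 42, against 4.43%, 8.12% and 8.05% of all genes. The factor called was Eif3h, an eIF3 subunit. Its total RNA was 6.25, 6.70 and 6.58 on the normalized log2 scale without mifepristone and 4.57, 4.45 and 5.93 with it. The groups did not overlap, and the change was -1.12 ± 0.22 (limma, adjusted p = 0.017, higher in 0 of 9 pairs). Its probe is dim: with mifepristone it was detected on 1 of 3 total RNA arrays, so the other values there are background readings and the size of the change is not settled. A second probe, detected on 8 arrays of 50, gave 0.31. The call was lost without replicate 1 lacking mifepristone (-0.71, adjusted p = 0.729) and without mifepristone replicate 1 (adjusted p = 0.0971). Within batches 1 and 3 the change was -1.69 and -0.71.

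Nearest to passing on polysomes were Eif3f (0.46 ± 0.18, adjusted p = 0.471) and Eif3a (-0.51 ± 0.23, adjusted p = 0.598), the latter at 0.04 without mifepristone replicate 3. Nearest in efficiency was again the dim Eif3h, at 1.49 ± 0.52 (adjusted p = 0.990). In efficiency the median 95% interval of a factor reached 0.57 to either side, and for 28 of 42 it lay within a change of 1 in either direction. Over the 42 factors the median change in efficiency was 0.005 and over all genes 0.013. In the non-inducible line no factor was called with mifepristone in any measure, against 0% of all genes in each, and 0, 0 and 1 of 42 had an unadjusted p below 0.05, against 0.238%, 0.492% and 0.698%. With 1 culture without mifepristone, the intervals there were wider, with a median half-width of 0.80 in efficiency. The test of the difference between the lines called none either, against 0%, 0.0238% and 0.0317% of all genes in the 3 measures. Its counts at an unadjusted p below 0.05 were 0, 0 and 2, against 1.09%, 2.29% and 3.6%.

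**Figure D3:**
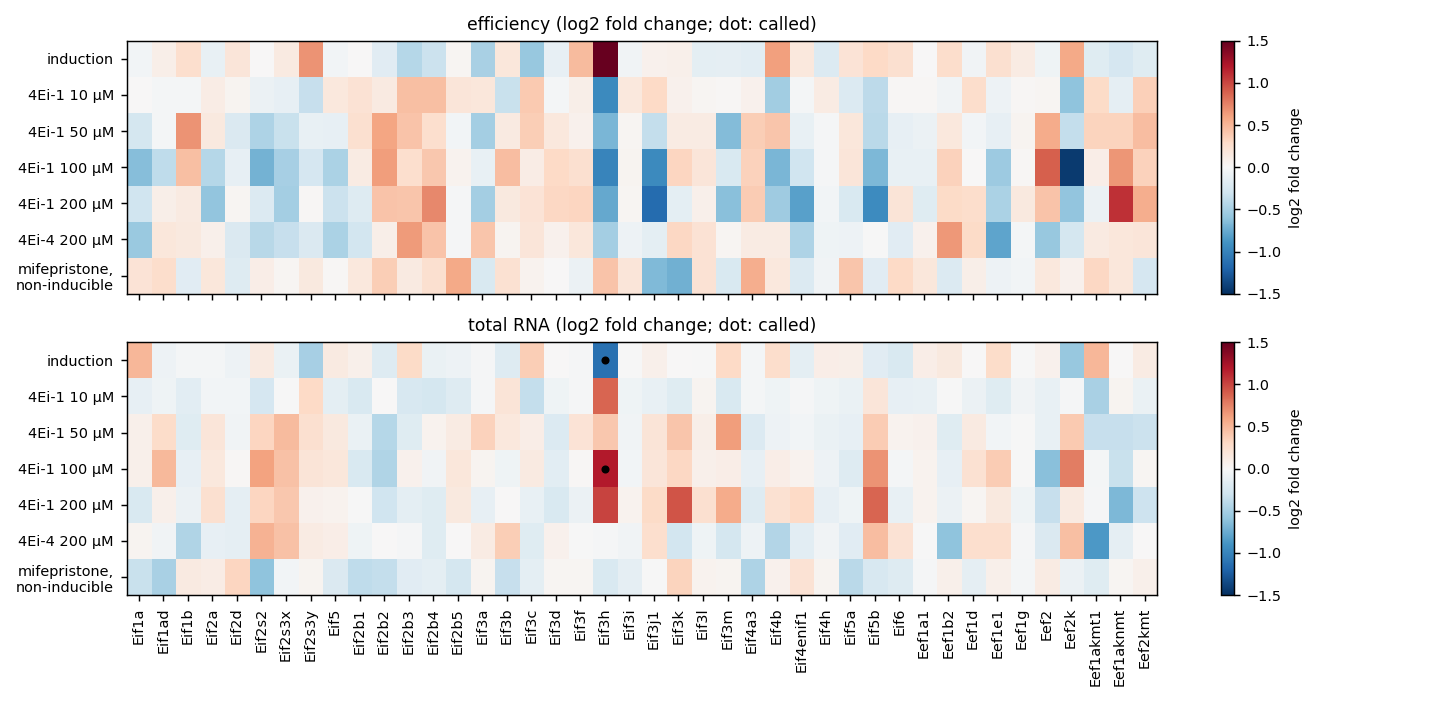
Log2 fold changes of the 42 factors in efficiency and total RNA for induction, each dose of 4Ei-1, 4Ei-4 and mifepristone in the non-inducible line. Colour gives the change and a dot a call, and the only dots are Eif3h in total RNA on induction and with 100 µM 4Ei-1.

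The third comparison asks how the factors changed when eIF4E was inhibited by 4Ei-1 in the presence of mifepristone, and all doses share the same 3 control cultures. With 200 µM no factor was called in any of the 3 measures, against 0.428%, 0.0159% and 0.175% of all genes. Counted at an unadjusted p below 0.05 there were 7, 5 and 5 of 42, against 13.4%, 12.8% and 11.7% of all genes. The largest rise in efficiency was that of Eef1aknmt, and it did not pass. Efficiencies of this eEF1A methyltransferase were 0.77, 0.77 and 0.64 with mifepristone alone and 2.51, 1.29 and 1.77 with 200 µM. All 3 treated cultures were above all 3 controls, with a change of 1.09 ± 0.26 (limma, adjusted p = 0.0695). The largest of the 3 came from the culture whose polysome array stood apart most. Without it the change was 0.72 (adjusted p = 0.206), and without replicate 2 it was 1.32 (adjusted p = 0.0239). Its total RNA was at -0.68 ± 0.19 (adjusted p = 0.139), with 8.20, 8.62 and 7.41 in the controls and 6.96, 8.46 and 8.05 with 200 µM, so those groups overlapped. A dimmer second probe gave 0.13 in efficiency.

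By dose, the mean efficiency of Eef1aknmt was 0.73 ± 0.07 (SD, n = 3) without drug, 0.43 ± 0.30 with 10 µM, 1.10 ± 0.09 with 50 µM, 1.42 ± 0.23 with 100 µM and 1.86 ± 0.61 with 200 µM. All 10 µM cultures were in batch 3 and all cultures at higher doses in batches 1 and 2, so these means mix dose with batch. In the fit with batch terms the slope was 0.60 ± 0.14 per 100 µM and did not pass (adjusted p = 0.0901). For Eif3j1, a loosely bound eIF3 subunit, the means were 0.82 ± 0.57, 0.67 ± 0.10, 0.60 ± 0.61, 0.004 ± 0.23 and -0.20 ± 0.35, with a slope of -0.70 ± 0.14 (adjusted p = 0.0569). Its probe was detected on 9 of these 30 arrays, on 3 of 15 in total RNA and on 0 of 6 at both 100 and 200 µM, so these efficiencies and their slope rest largely on background readings. No factor was called for the slope in any measure, against 0.0238%, 0% and 0.0793% of all genes, and 4, 5 and 7 had an unadjusted p below 0.05, against 11.8%, 11.9% and 10.5%.

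**Figure D4:**
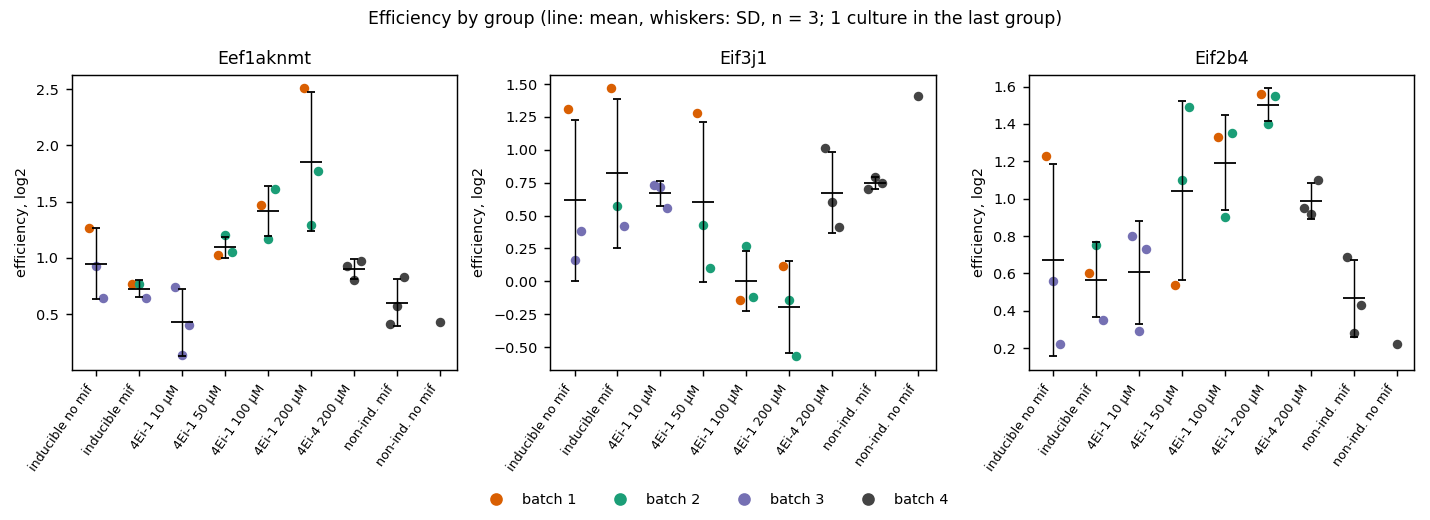
Efficiency (log2) of Eef1aknmt, Eif3j1 and Eif2b4 in each culture by group, coloured by processing batch, with the mean and SD of 3 cultures. The 3 cultures with 200 µM 4Ei-1 lie above the 3 with mifepristone alone for Eef1aknmt and Eif2b4 and below them for Eif3j1, whose readings are mostly background, and no change passed the test.

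Among the eIF2B subunits the delta subunit Eif2b4 had efficiencies of 0.60, 0.75 and 0.35 in the controls and 1.56, 1.40 and 1.55 with 200 µM. The groups did not overlap, yet the change of 0.72 ± 0.26 did not pass (adjusted p = 0.234). Eif4enif1 was at -0.81 ± 0.31 (adjusted p = 0.266) and Eif2s3x at -0.51 ± 0.23 (adjusted p = 0.340). On polysomes Eif3k, an eIF3 subunit, was at 0.80 ± 0.26 (adjusted p = 0.211) and in total RNA at 0.95 ± 0.28 (adjusted p = 0.176). With no batch term its polysome value was -0.09. Without 200 µM replicate 1 its total RNA value was 1.32 and passed (adjusted p = 0.0421). Eif3a on polysomes was at -0.64 ± 0.23 (adjusted p = 0.271, higher in 0 of 9 pairs). The median change in efficiency was 0.003 over the factors and -0.02 over all genes, and for 22 of 42 the interval lay within a change of 1.

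At the lower doses the only call was again Eif3h, with 100 µM in total RNA (0.468% of all genes called). Its values were 6.04, 5.64 and 5.60 against 4.57, 4.45 and 5.93 in the controls, which overlapped. The change was 1.19 ± 0.22 (adjusted p = 0.0206) against the same controls at background, with detection on 4 of 6 arrays, and it was 1.19 with the replicate number as a block, where the call was lost (adjusted p = 0.0507). It was also lost without mifepristone replicate 1 (adjusted p = 0.0759) or 2 (adjusted p = 0.0593), and the second probe gave 0.30. Of 10 alternative settings, that block among them, 1 kept the count of 1 factor called. In the setting limited to genes detected on every array compared, Eif3h was not tested. At 200 µM the same probe of Eif3h was at 1.01 ± 0.22 in total RNA (adjusted p = 0.0691). In efficiency and on polysomes no factor was called with 100 µM (0.333% and 0.0873% of all genes), none with 50 µM in any measure (0.0714%, 0% and 0.143%), and none with 10 µM (0% in each). Unadjusted p-values below 0.05 numbered 6, 2 and 5 in the 3 measures with 100 µM (13.4%, 10.9% and 13.6% of all genes), 1, 0 and 2 with 50 µM (10.3%, 6.37% and 12.1%) and 0, 0 and 2 with 10 µM (0.984%, 1.07% and 1.33%). With 100 µM the elongation factor Eef2 was at -0.62 ± 0.18 in total RNA (adjusted p = 0.124) and Eif2s2 at -0.71 ± 0.30 in efficiency (adjusted p = 0.297). With 50 µM the nearest in efficiency was Eif2b2 (0.59 ± 0.23, adjusted p = 0.387). With 10 µM the eEF1A methyltransferase Eef1akmt1 was at -0.49 ± 0.22 in total RNA (adjusted p = 1). Among the other genes of translation, Gfm1, the mitochondrial translocase, fell by 1.84 ± 0.29 in efficiency with 50 µM (adjusted p = 0.0282).

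The fourth comparison sets 4Ei-1 against the weaker analog 4Ei-4, included as a check for effects other than on eIF4E, at the matched dose of 200 µM and the matched time, 1 pair of compounds. No factor was called as different in efficiency or polysome RNA (0% of all genes in both) or in total RNA (0.00793%), and 4, 2 and 3 of 42 had an unadjusted p below 0.05, against 5.73%, 6.12% and 4.46%. Eef1aknmt had efficiencies of 0.93, 0.80 and 0.97 with 4Ei-4, all below the 3 values with 4Ei-1. The difference was 0.96 ± 0.30 with a 95% interval from 0.34 to 1.57 and did not pass (limma, adjusted p = 0.740). Eif3a on polysomes differed by -1.26 ± 0.37, interval -2.02 to -0.49 (adjusted p = 0.615), though its second probe gave 0.19. The median interval reached 0.69 to either side in efficiency, and for 22 of 42 factors it lay within a change of 1, so larger differences remain possible for the other factors. All 4Ei-4 cultures were in batch 4 and all 4Ei-1 cultures at 200 µM in batches 1 and 2, so compound and batch cannot be told apart. Against mifepristone alone, 4Ei-4 gave no call in efficiency or on polysomes (0% of all genes in both) or in total RNA (0.00793%). The nearest were Eef1b2 in total RNA (-0.60 ± 0.21) and in efficiency (0.65 ± 0.28), both with an adjusted p of 1, and 1, 0 and 2 of 42 had an unadjusted p below 0.05, against 3.83%, 2.51% and 2.78%.

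The last comparison sets the inducible line against the non-inducible line, both with mifepristone. No factor was called in efficiency (0.0238% of all genes), 1 on polysomes (2.51%) and 3 in total RNA (6.29%), shares close to those of all genes. At an unadjusted p below 0.05 there were 2, 10 and 12 of 42, against 8.03%, 15% and 19.7%. Eif2s3x was lower in the inducible line in both RNAs. Its total RNA was 7.44, 7.20 and 7.94 in the inducible and 9.05, 9.06 and 9.03 in the non-inducible line, and the non-inducible culture without mifepristone was at 9.09. The groups did not overlap (-1.52 ± 0.31, limma, adjusted p = 0.00508). On polysomes the values were 8.61, 8.57 and 8.93 against 9.93, 9.92 and 10.27 (-1.34 ± 0.31, adjusted p = 0.0214). Every one of the 21 inducible cultures, at any dose, was below every one of the 4 non-inducible cultures in both RNAs. Efficiency overlapped, from 0.42 to 1.52 in the inducible and from 0.86 to 1.24 in the non-inducible cultures. The polysome call was lost without mifepristone replicate 2 (adjusted p = 0.0595) or non-inducible replicate 3 (adjusted p = 0.0565).

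Eif2b1 was higher in total RNA, at 9.32, 9.87 and 8.78 against 8.27, 8.07 and 8.44 (1.06 ± 0.26, adjusted p = 0.0197), again without overlap. A second probe of Eif2b1, detected on all arrays, gave -0.44. The eIF4E transporter Eif4enif1 was lower, at 7.39, 8.35 and 8.43 against values between 8.99 and 9.10 (-0.97 ± 0.27, adjusted p = 0.0367), and its second probe, also detected on all arrays, gave 0.29. Both calls were lost without non-inducible replicate 2 (adjusted p = 0.0579 and 0.0819), that of Eif2b1 also without mifepristone replicate 2 (0.0648), and that of Eif4enif1 without mifepristone replicate 1 (0.111) and non-inducible replicate 1 (0.0618) or 3 (0.0604). Eif3d was at 0.68 ± 0.21 in total RNA and did not pass (adjusted p = 0.0642).

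**Figure D5:**
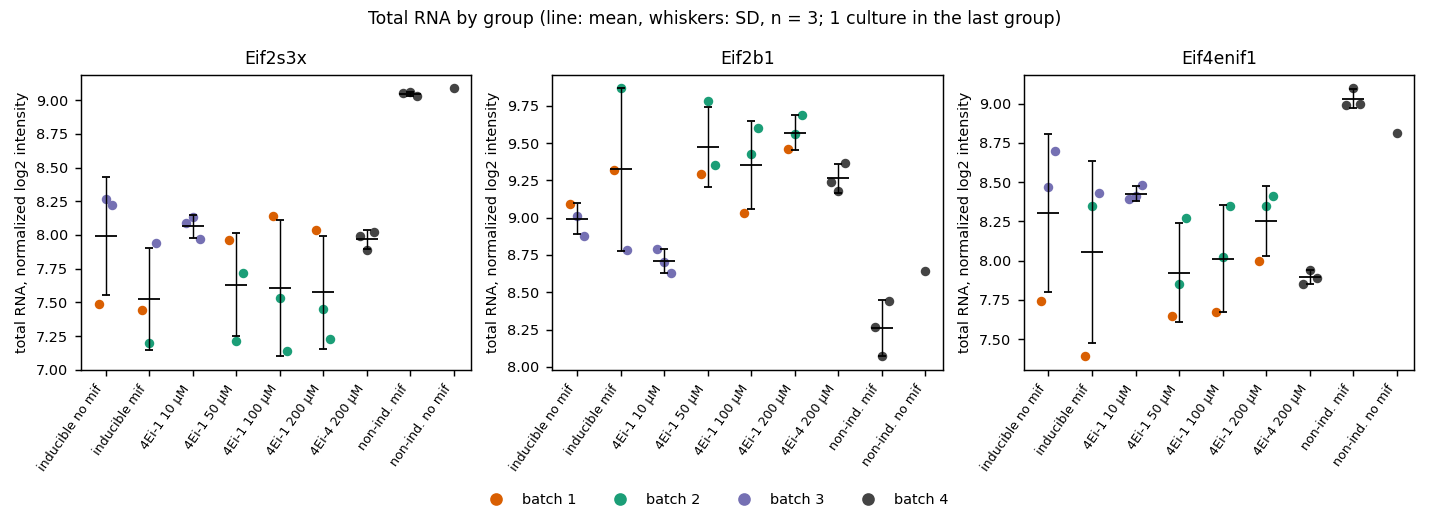
Total RNA (normalized log2 intensity) of Eif2s3x, Eif2b1 and Eif4enif1 in each culture by group, coloured by processing batch, with the mean and SD of 3 cultures. The 4 non-inducible cultures lie above all 21 inducible cultures for Eif2s3x and Eif4enif1 and, except the one without mifepristone, below all of them for Eif2b1.

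These 2 groups lie in different batches. Within batch 4 the inducible line with 4Ei-4 and the non-inducible line with mifepristone can be set side by side, a comparison chosen after the data were seen in which the drug also differs. Of 42 factors 18 were called in efficiency (34.4% of all genes), 24 on polysomes (47.9%) and 26 in total RNA (43%). Of the factors detected on all arrays compared, 46.2%, 60% and 66.7% were called, against 50.3%, 65.8% and 58.3% of all genes so detected. In that setting Eif2s3x was at -1.08 ± 0.09 in total RNA (limma, adjusted p = 1.17e-05), Eif4enif1 at -1.13 ± 0.09 (adjusted p = 9.04e-06) and Eif2b1 at 1.00 ± 0.12 (adjusted p = 8.93e-05). The widest difference was that of Eif3k, at -2.09 ± 0.12 (adjusted p = 1.75e-06). Its total RNA was 7.89, 8.13 and 8.20 in the inducible line with 4Ei-4 and 10.32, 10.20 and 9.97 in the non-inducible line. Other inducible cultures varied widely: with mifepristone alone they were at 8.19, 7.16 and 9.71, and in batch 3 all lay from 9.05 to 9.71. Eif3k was not called between the lines with mifepristone alone. Eef1b2 was higher by 1.09 ± 0.16 in efficiency (adjusted p = 9.95e-05), and Eef2 (-1.40 ± 0.21), Eif1a (-1.28 ± 0.17) and Eif5a (-1.13 ± 0.19) were lower.

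Of the other genes of translation, 2 of 30 were called between the lines on polysomes and 5 in total RNA, against 2.51% and 6.29% of all genes. Gspt2, a termination factor, was lower in the inducible line in both (-2.52 ± 0.25 and -2.14 ± 0.21, adjusted p = 2.97e-06 and 1.84e-06), and Mcts1, which works with initiation and recycling factors, was lower on polysomes (-1.16 ± 0.30). Dhps, the first enzyme of eIF5A hypusination, was higher in total RNA (1.02 ± 0.28). Pabpc1 (-1.92 ± 0.51), Larp1 (-1.46 ± 0.40) and Mtrf1l (-1.38 ± 0.39) were lower in total RNA.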

How the data were processed

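Bead intensity and a detection p-value per probe were deposited for 50 arrays, per the file headers, with no background correction or scaling stated. The authors' deposited log2 values of the same arrays had medians from 7.02 to 7.06, ranked probes as the intensities did (Spearman 1) and served as an alternative, and the method behind them was not stated. Intensities were corrected with limma's nec (normexp with detection p-values, offset 16), quantile-normalized over 50 arrays and put on the log2 scale. The platform table names 34885 of 45281 probes by 1 gene, 18 by several and leaves 10378 unlisted. For each gene the probe with the highest mean intensity was kept. Genes with a detection p-value below 0.05 on at least 3 arrays were tested (12605).

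Fits used limma 3.58.1 with statmod 1.5.0 in R 4.3.3, and p-values were Benjamini-Hochberg adjusted over all genes tested, called below 0.05. Batch was a fixed term for induction and 4Ei-1. It was a random block (duplicateCorrelation) where batch 4 entered and for polysome against total RNA, where the consensus correlation was 0.45 on polysomes, 0.408 in total RNA and 0.172 in efficiency. Precision is limited by the number of arrays, of which none held identical values.

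The members and gene lists were chosen with earlier results of these data known. Genes named were those called, or up to 4 of smallest p per comparison and measure among those detected on every array, the 6 highest and 6 lowest of polysome against total RNA, and members of the eIF3, elongation and 5′ TOP lists. Eif5a in polysome against total RNA was named after its values were seen. Start sites came from RefSeq.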

Additional observations from a re-analysis of the deposited data

How the results depend on the processing

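The count of 29 factors called between polysome and total RNA stayed between 29 and 31 when single cultures were left out. Of 2517 values recomputed for named genes, 2412 kept their direction and side of the threshold, 25 lost the call, 30 gained one and 50 changed sign. In total RNA the Eif3h call with 100 µM 4Ei-1 was lost (0 factors called) under no background correction and the authors' log2 values. It was lost with an offset of 50, no batch term, a random block, the replicate block, the next brightest probe and within batch 2. On induction it was lost (0 called) under the authors' log2 values, the next brightest probe and within batch 3. Among genes detected on every array compared, 0 factors were called in either comparison. Eif3h, detected on 4 of 6 arrays in each, was not tested there. Between the lines in total RNA 5 factors were called with no background correction and among genes detected on every array. With no batch term 10 were called in total RNA and 6 on polysomes, and with the next brightest probe 1 was called in total RNA. Within batch 4 the inducible line had 4Ei-4, so that comparison is a different one. It gave 26 in total RNA, 24 on polysomes and 18 in efficiency. At 200 µM 1 factor was called in efficiency with an offset of 50 and 1 without the filter on dim probes. For the dose slope 4 were called in efficiency with no batch term, 2 with a random block and 1 without the filter, and 9 on polysomes with no batch term. For 4Ei-1 against 4Ei-4 on polysomes 1 was called with no batch term. Leaving out single cultures gave 1 to 8 calls between the lines in total RNA and 0 to 2 on polysomes, 0 to 2 on induction in total RNA, 0 to 1 with 100 µM in total RNA and in efficiency, 0 to 2 with 200 µM in efficiency and in total RNA, and 0 to 2 for the slope in efficiency. The causes were not tested.

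The replicate block gave 0 calls with 100 µM in total RNA and moved no other count by over 1.5 times. In 24 checks of a comparison and measure, same-numbered cultures correlated by over 0.1 for all 3 numbers in 2, on polysomes with 200 µM and in efficiency with 100 µM, where the block changed no call. All 6 cultures correlated best with their own number in 2, a hint from the data and not the design.

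Signs turned with no batch term, none of them called. On polysomes these were Eif3f -0.01 on induction, Eif3k -0.09 with 200 µM 4Ei-1, Eif3k -0.25 with 100 µM 4Ei-1, Eif3k -0.35 and Eif3f -0.19 with 50 µM 4Ei-1, Eif2s2 0.08 and Eif4b 0.51 with 10 µM 4Ei-1, Eif3k -0.28 for the dose slope. In total RNA these were Eif3d 0 with 200 µM 4Ei-1, Eif2b2 0.11, Eif3a -0.12 and Eef1aknmt 0.083 with 50 µM 4Ei-1, Eef1aknmt 0.005, Eif3k -0.20, Eif2s3x -0.10 and Eif2s2 -0.048 for the dose slope. With the next brightest probe, signs turned for further named genes, among which Eif3b over all groups was called the other way. In efficiency these were Eif3a 0.43 on induction, Eif3a 0.31 with 50 µM 4Ei-1, Eif3b 0.33 and Eef2kmt -0.59 with 10 µM 4Ei-1, Eif3k 0.017 with mifepristone in the non-inducible line, Eif2b5 0.14 between the lines' mifepristone effects, Eif3b -0.50 over all groups. On polysomes these were Eif3a 0.13 on induction, Eef2kmt -0.075 with 100 µM 4Ei-1, Eif3k -0.012 with 50 µM 4Ei-1, Eif2s2 0.008, Eef2kmt -0.28 and Eif4b 0.25 with 10 µM 4Ei-1, Eif3k -0.029 for the dose slope, Eif3a -0.38 with 4Ei-4, Eif3a 0.19 for 4Ei-1 against 4Ei-4, Eif2b5 -0.041 with mifepristone in the non-inducible line, Eif2s2 -0.086 between the lines' mifepristone effects. In total RNA these were Eif3h 0.31 on induction, Eef1aknmt 0.24 and Eif3k -0.15 with 200 µM 4Ei-1, Eif3a -0.036 and Eef1aknmt 0.26 with 50 µM 4Ei-1, Eif2b1 0.18 and Eif2b5 0.018 with 10 µM 4Ei-1, Eef1aknmt 0.003 and Eif3k -0.047 for the dose slope, Eif2s2 -0.028 with 4Ei-4, Eif3k -0.66 for 4Ei-1 against 4Ei-4, Eif5a 0.019 with mifepristone in the non-inducible line, Eif2b1 -0.046 between the lines' mifepristone effects, Eif2b1 -0.43 and Eif4enif1 0.29 between the lines. On induction Eif3a on polysomes ranged from -1.02 to 0.041 when single cultures were left out, the latter without mifepristone replicate 3. Over all genes the count of polysome against total RNA was 5717 and ranged from 3803 to 6802, but the settings differ in the number of genes tested. The 5717 were 45.4% of 12605 genes, and the 3803 were 79.4% of the 4792 detected on all arrays. Dim probes, Eif3h and Eif3j1 among them, limit what can be read at low signal.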
